A study of Mus musculus with 3 samples.

Results

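Slpi, Serpinb2, Serpina3j, Serpina3g and Serpina3n are mouse genes for inhibitors of serine proteases. They were taken by symbol and made up 5 of the 31253 genes listed for skin. They had been chosen by measured values of the same skin libraries, so the differences between libraries given below are a description with no test. One skin library came from mice given both RHS and MC903, and the other from control mice given MC903 alone. MC903 is calcipotriol, a vitamin D analogue that causes a dermatitis resembling atopic eczema when put on mouse skin. RHS is not spelled out in the labels. Both libraries held skin cells selected with CD45 beads and captured in BD Rhapsody microwells, and the sources used here do not give the number of mice behind each or their strain, age and sex. With 1 library per group, the intervals below cover counting error only, and the treatment and the library cannot be told apart.

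Serpins are suicide inhibitors. A protease that cuts the exposed loop of a serpin stays bound to it and both are lost. Slpi, the secretory leukocyte protease inhibitor, belongs to another family, built of whey acidic protein (WAP) domains, and blocks neutrophil elastase and cathepsin G on mucosal and skin surfaces. Serpinb2, also called plasminogen activator inhibitor 2, inhibits urokinase and is known from activated monocytes and macrophages and from keratinocytes. The Serpina3 genes form a cluster in the mouse that corresponds to human SERPINA3, the gene of alpha-1-antichymotrypsin. Serpina3g is known as an inhibitor of lysosomal cathepsins in leukocytes, and Serpina3n as a secreted inhibitor of granzyme B and other serine proteases.

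The RHS library held 13339 barcodes with 52762575 UMIs and the control library 12979 barcodes with 55200785 UMIs, and 5 barcodes occurred in both. After filtering, 12983 RHS cells and 12615 control cells were kept, with a median of 3104 and 3238 UMIs. Levels are summed counts scaled to the usual CPM unit by the UMIs of the same cells, with exact Poisson 95% intervals, and ratios are RHS over control with exact conditional binomial 95% intervals. The cells fell into 28 clusters, grouped into 20 named classes and 7 clusters known only by a pair of their leading genes. Ratios were given for the 25 of these with at least 50 cells in each library. The label says immune cells, but only 76.4% of RHS cells and 65.7% of control cells lay in clusters where Ptprc, which encodes CD45, reached 100 CPM. The other cells were keratinocytes, sebocytes, fibroblasts, endothelial and mural cells and the like. Cell class shares differed between libraries, as macrophages made up 14.8% of RHS cells and 7.44% of control cells. Basal and follicular keratinocytes made up 0.601% of RHS cells and 4.50% of control cells.

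The promoters of 4 of the genes are shown because Slpi and Serpinb2 were both highest in myeloid classes, while the related Serpina3g and Serpina3n differed in the classes where they were highest. Each run is 300 bases long, covers 250 bases before the start of the gene and 50 after it, reads 5′ to 3′ on the gene's own strand, and comes from RefSeq on GRCm38.p6. The files themselves were made on GRCm39. Capitals mark matches to any of 5 motifs searched on both strands.
Slpi, chr2:164356458-164356757, minus strand: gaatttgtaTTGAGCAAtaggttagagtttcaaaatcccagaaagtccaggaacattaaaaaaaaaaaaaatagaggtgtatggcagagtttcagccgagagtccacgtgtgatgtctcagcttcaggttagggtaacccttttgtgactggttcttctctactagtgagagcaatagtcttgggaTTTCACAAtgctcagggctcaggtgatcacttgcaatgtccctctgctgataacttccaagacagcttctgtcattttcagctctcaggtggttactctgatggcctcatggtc
Serpinb2, chr1:107511173-107511472, plus strand: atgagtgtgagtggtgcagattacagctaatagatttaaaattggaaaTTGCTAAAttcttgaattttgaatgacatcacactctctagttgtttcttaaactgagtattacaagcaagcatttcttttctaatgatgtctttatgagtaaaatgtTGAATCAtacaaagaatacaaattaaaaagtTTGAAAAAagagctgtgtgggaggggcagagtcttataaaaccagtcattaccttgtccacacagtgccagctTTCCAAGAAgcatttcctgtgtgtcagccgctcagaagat
Serpina3g, chr12:104235897-104236196, plus strand: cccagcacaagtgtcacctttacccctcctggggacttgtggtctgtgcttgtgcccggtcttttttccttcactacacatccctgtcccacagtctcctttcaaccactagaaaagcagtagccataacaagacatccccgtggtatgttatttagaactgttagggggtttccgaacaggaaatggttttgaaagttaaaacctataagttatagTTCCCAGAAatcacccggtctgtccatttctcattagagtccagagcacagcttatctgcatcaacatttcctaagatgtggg
Serpina3n, chr12:104406458-104406757, plus strand: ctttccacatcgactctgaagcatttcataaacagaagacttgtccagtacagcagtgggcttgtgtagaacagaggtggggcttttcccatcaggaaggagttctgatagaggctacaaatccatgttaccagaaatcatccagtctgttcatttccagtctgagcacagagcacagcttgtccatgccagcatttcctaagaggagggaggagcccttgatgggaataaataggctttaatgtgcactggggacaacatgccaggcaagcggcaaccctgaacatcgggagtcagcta
The motifs were GGANTTTCC for NF-kB, TTCNNNGAA for STAT factors, TGANTCA for AP-1, TTGNNNAA for C/EBP and GAAANNGAA for the interferon response core. They occurred in 1.25%, 8.30%, 7.81%, 36.7% and 8.56% of the 32851 mouse promoters in the same table. Slpi had 2 C/EBP matches, 241 and 64 bases before the start. Serpinb2 had 1 AP-1 match 94 bases before the start, C/EBP matches 202 and 63 bases before it, and 1 STAT match just after it. Serpina3g had a STAT match 33 bases before the start, while the Serpina3n and Serpina3j windows matched none of the motifs. Aligned to each other, the Serpina3g and Serpina3n windows shared 136 of 210 aligned bases (64.8%). RefSeq lists 2 starts of Serpinb2, of which the first is shown, and the matches in the printed windows did not overlap each other. A match is a run of letters and not a binding site shown by these data.

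Slpi, the most abundant of the genes over all kept cells, was highest in basophils, neutrophils and monocytes in both libraries. Its summed level over all kept cells was 229 CPM (225 to 233) in the RHS library and 281 CPM (277 to 286) in the control library, a ratio of 0.816 (0.796 to 0.836). The pooled Slpi ratio thus lay within 1.5-fold. Over all genes with at least 50 counts, 14.3% were at least 1.5-fold lower and 2.52% at least 1.5-fold higher in the RHS library. The median log2 ratio of those genes was -0.10. The level in basophils was 3745 CPM (3593 to 3902) in RHS and 4112 CPM (3965 to 4263) in control cells. In neutrophils it was 2922 CPM (2715 to 3139) in RHS and 4730 CPM (4472 to 5000) in control cells. Basophils therefore came first in the RHS library and neutrophils first in the control library, and in each library the intervals of these neighbours did not overlap. Monocytes followed with 1072 CPM (1046 to 1098) in RHS and 1140 CPM (1111 to 1170) in control cells. Monocytes held the most Slpi counts, with 55.5% of those in the RHS library and 37.6% of those in the control library.

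Free RNA, estimated from keratin counts in lymphocytes, made up 5.44% of RHS and 4.55% of control UMIs. At that rate it would give 12.5 CPM of Slpi in any RHS class and 12.8 CPM in any control class. The lower bound of Slpi exceeded this level in 13 of 25 RHS classes and 12 of 25 control classes. Among T cells the level was below it, as alpha-beta T cells had 6.37 CPM (4.12 to 9.41) in RHS and 4.10 CPM (1.65 to 8.45) in control cells. The estimate was therefore higher than the level these cells held. Among leukocytes of 1 library Slpi thus ran between background in T cells and its highest level in basophils or neutrophils.

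**Figure D1:**
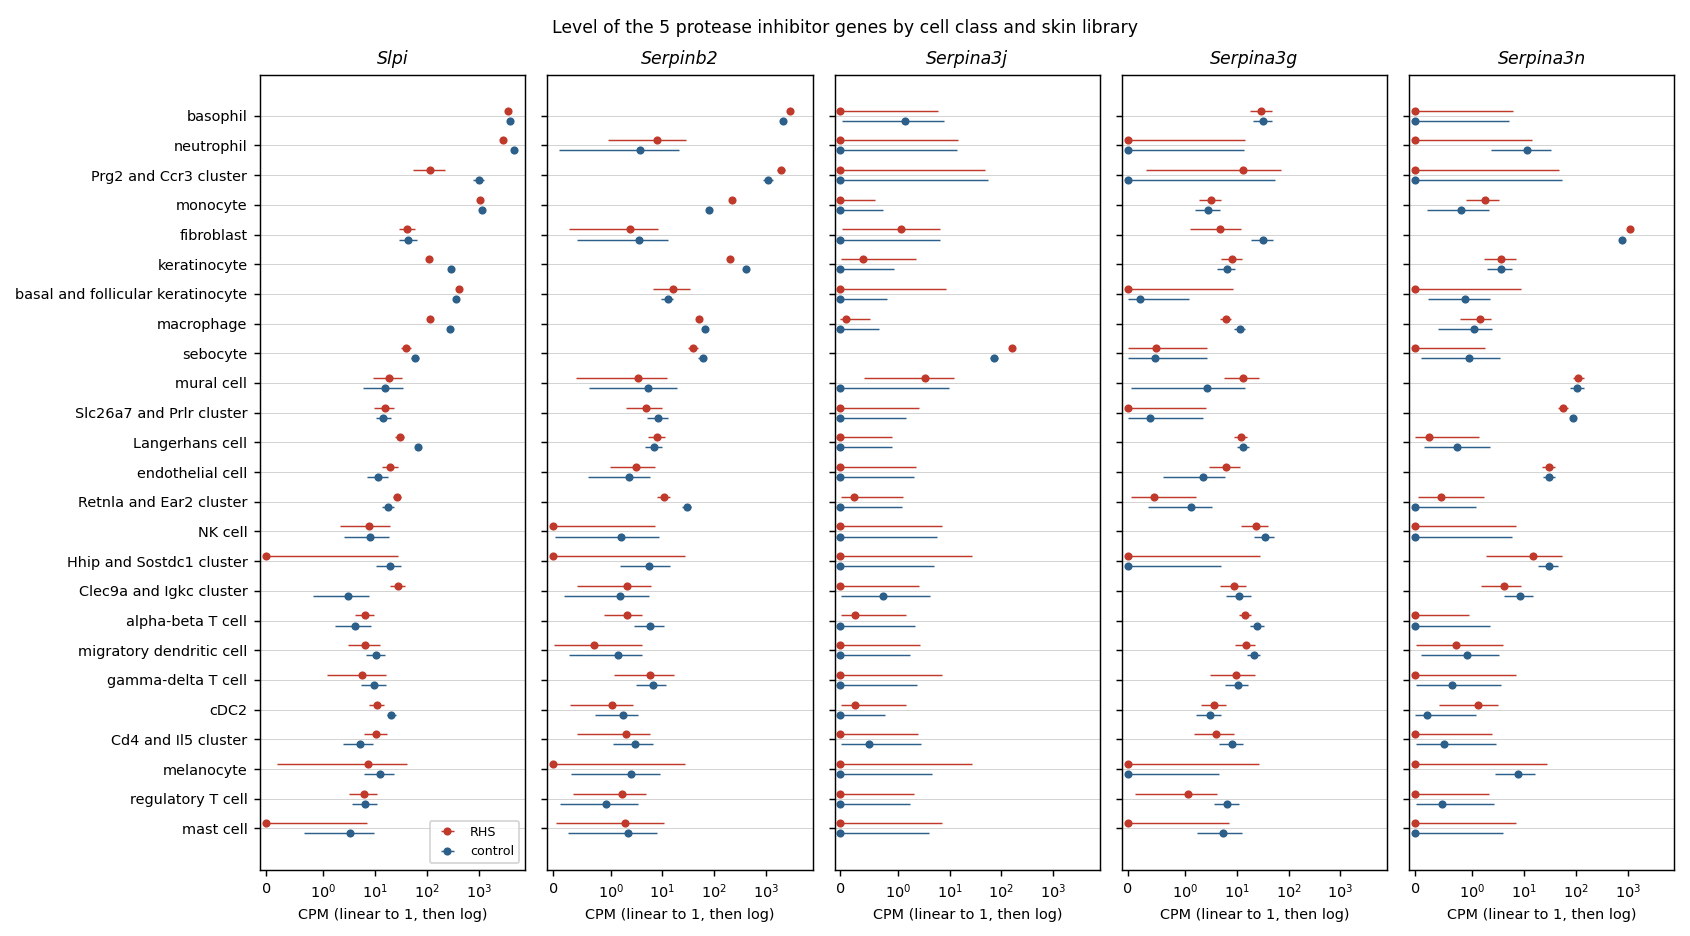
Level of each gene in CPM (linear up to 1, logarithmic above) in the 25 cell classes compared, with RHS points above control points and exact Poisson 95% intervals as bars. Slpi peaked in basophils and neutrophils and Serpinb2 in basophils and the Prg2 and Ccr3 cluster, Serpina3j stood above background in sebocytes, Serpina3n peaked in fibroblasts at 1132 CPM in RHS and 783 CPM in control cells, and Serpina3g was low in every class.

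Slpi was lower in the RHS library in neutrophils, macrophages and keratinocytes, and close to the control level in basophils and monocytes. The neutrophil ratio was 0.618 (0.563 to 0.677), and 70.1% of 174 RHS neutrophils against 84.5% of 187 control neutrophils had a UMI of Slpi. In this class 14.2% of measured genes were at least 1.5-fold lower and 10.5% at least 1.5-fold higher. The neutrophil markers themselves, such as S100a8 with 17035 CPM in RHS and 19268 CPM in control cells, gave a summed level ratio of 0.885. Marker lists of other cells went both ways in this class. The macrophage list summed to 338 CPM in RHS and 535 CPM in control neutrophils. The basal and follicular keratinocyte list summed to 39.3 CPM in RHS and 106 CPM in control neutrophils. The Langerhans cell list, with 6 of 6 markers detected in RHS and 5 in control cells, summed to 2890 CPM in RHS and 965 CPM in control cells, and the cDC2 list to 833 CPM in RHS and 283 CPM in control cells. Their part in the Slpi result was not tested. Without the 3 cells with the most Slpi in each library, the neutrophil ratio was 0.602. In macrophages Slpi was at 113 CPM (107 to 120) in RHS and 283 CPM (269 to 298) in control cells, a ratio of 0.400 (0.371 to 0.432) in a class where 4.4% of genes were at least 1.5-fold lower. Erythroid markers, mainly globin genes, summed to 102 CPM in RHS and 3.65 CPM in control macrophages, and basophil markers to 21.6 CPM in RHS and 11.3 CPM in control macrophages, and their part in the result was not tested. Macrophages with 10 or more Slpi UMIs made up 1.40% of 1927 RHS cells and 4.69% of 938 control cells. At finer clustering each of the 4 macrophage clusters was lower in RHS cells, with ratios between 0.359 and 0.632. In the most Slpi-rich of them the level was 278 CPM in RHS and 776 CPM in control cells. These finer clusters were not a plain split of the class. The cluster with 632 cells of the macrophage class also held 224 of the monocyte class, and that with 680 also held 111.

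The keratinocyte class, led by Krt6a and Krtdap, had 112 CPM (98.8 to 125) of Slpi in the RHS library and 291 CPM (274 to 308) in the control library. The ratio was 0.384 (0.335 to 0.438), in a class where 5.52% of genes were at least 1.5-fold lower. After each cell was thinned to 1000 UMIs, 5.66% of RHS and 12.5% of control keratinocytes had a UMI of Slpi. Markers of neutrophils summed to 8.83 CPM in RHS and 17.2 CPM in control keratinocytes, and those of basophils to 4.01 CPM in RHS and 15.1 CPM in control keratinocytes. Monocyte markers summed to 70.6 CPM in RHS and 26.0 CPM in control keratinocytes. The part of these markers in the result was not tested. Basal and follicular keratinocytes gave 416 CPM (357 to 481) in RHS and 367 CPM (350 to 385) in control cells, a ratio of 1.13 (0.964 to 1.32) from 78 RHS and 568 control cells. Without the 3 cells with the most Slpi in each library it was 0.232. Langerhans cells, the resident antigen-presenting cells of the epidermis, had 29.7 CPM in RHS and 66.8 CPM in control cells, a ratio of 0.444 (0.356 to 0.552).

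Basophil Slpi gave a ratio of 0.911 (0.862 to 0.962), with a UMI in 67.1% of 343 RHS and 70.4% of 398 control basophils. The basophil class was defined well, with 20404 CPM of its 7 markers in RHS and 18785 CPM in control cells, and all 7 detected in both. The monocyte ratio was 0.940 (0.907 to 0.974), and 46.1% of 1133 RHS and 49.9% of 888 control monocytes had a UMI. When each library was clustered on its own, the monocyte ratio was 0.605. The distribution among monocytes was uneven, with 53.9% of RHS and 50.1% of control cells at 0, and 16.5% of RHS and 19.9% of control cells with 10 or more UMIs. At finer clustering a monocyte cluster led by Chil3, Ms4a4c and Slpi itself had 2591 CPM in 474 RHS cells and 2835 CPM in 333 control cells.

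Serpinb2 was concentrated in basophils and in the Prg2 and Ccr3 cluster, and at lower levels in keratinocytes and monocytes. Over all kept cells it was at 88.6 CPM (86.1 to 91.2) in the RHS library and 81.2 CPM (78.8 to 83.7) in the control library, a ratio of 1.09 (1.05 to 1.14). The ratios of single classes lay on both sides of 1, with monocytes and basophils higher in RHS cells and keratinocytes lower. Basophils had 2939 CPM (2805 to 3079) in RHS and 2107 CPM (2003 to 2216) in control cells, the highest level of any class in both libraries. The basophil ratio was 1.39 (1.30 to 1.49), under the 1.5-fold mark that 2.41% of basophil genes passed upward and 5.93% downward. A UMI was found in 52.8% of RHS and 46.5% of control basophils. Free RNA would give 4.82 CPM in RHS and 3.70 CPM in control classes. Neutrophils, so rich in Slpi, had Serpinb2 UMIs in 2 of 174 RHS cells and 1 of 187 control cells.

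Monocytes had 225 CPM (213 to 237) of Serpinb2 in RHS and 80.7 CPM (73.0 to 89.0) in control cells, from 1380 and 402 counts. The ratio was 2.79 (2.49 to 3.12), in a class where 2.67% of genes were at least 1.5-fold higher and 4.39% at least 1.5-fold lower. Cells with 3 or more UMIs were more frequent in RHS and weakly positive ones were not. Strongly positive cells, with 10 or more UMIs, made up 4.06% of RHS and 1.46% of control monocytes. Those with 3 to 9 UMIs made up 4.77% of RHS and 2.59% of control monocytes. Those with 1 to 2 UMIs made up 4.94% of RHS and 5.86% of control monocytes. In the finer cluster led by Chil3, Ms4a4c and Slpi the level was 607 CPM in RHS and 185 CPM in control cells, a ratio of 3.27 (2.87 to 3.75). Without the 3 cells with the most Serpinb2 in each library the monocyte ratio was 3.15, and over all alternatives it ran between 2.21 and 3.27. The 7 monocyte markers summed to 4624 CPM in RHS and 3481 CPM in control cells, led by Chil3 with 2547 CPM in RHS and 1530 CPM in control cells, and alpha-beta T cell markers to 50.3 CPM in RHS and 18.9 CPM in control cells, and their part in the result was not tested. Basophil markers summed to 45.0 CPM in RHS and 33.9 CPM in control monocytes, a ratio of 1.33 (1.09 to 1.61). All 7 were detected in RHS monocytes, while Mcpt8 and Ms4a2 were at 0 in control monocytes. The part of basophil markers in the result was not tested.

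The Prg2 and Ccr3 cluster was small and shallow, with 101 RHS and 72 control cells and a median of 631 and 647 UMIs. Its leading genes include Prg2, which encodes the eosinophil major basic protein, and Ccr3, the eotaxin receptor. Epx, the eosinophil peroxidase gene, had no count in either library and Siglecf 1 count in each, so the cluster was not called eosinophils. Serpinb2 was at 1964 CPM (1664 to 2302) in RHS and 1114 CPM (878 to 1395) in control cells of this cluster, from 152 and 76 counts. The ratio was 1.76 (1.33 to 2.35), in a cluster where 8.03% of the 274 measured genes were at least 1.5-fold higher. UMIs of Serpinb2 were present in 56 of 101 RHS and 36 of 72 control cells. Slpi went the other way, with 9 counts or 116 CPM (53.2 to 221) in RHS and 68 counts or 997 CPM (774 to 1264) in control cells. The Slpi ratio was 0.117 (0.0511 to 0.235) beside 9.85% of genes at least 1.5-fold lower. Of the 68 control counts 31 came from 1 cell, and UMIs were present in 7.92% of RHS and 22.2% of control cells. Monocyte markers summed to 2028 CPM in RHS and 1364 CPM in control cells of the cluster. Basophil markers, with 6 of 7 detected in each library, summed to 1976 CPM in RHS and 1628 CPM in control cells. Neutrophil markers summed to 1279 CPM in RHS and 1012 CPM in control cells. The eosinophil list itself summed to 878 CPM in RHS and 1173 CPM in control cells. The 5 erythroid markers were all detected in RHS cells and summed to 4121 CPM, against 29.3 CPM in control cells, where Hba-a2, Hbb-bt and Alas2 were at 0. The part of these markers in the Serpinb2 and Slpi results was not tested.

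Keratinocytes held 37.0% of all Serpinb2 counts of the control library but 11.1% of those of the RHS library. Their level was 205 CPM (187 to 223) in RHS and 408 CPM (389 to 429) in control cells, a ratio of 0.501 (0.453 to 0.554). Background for this class was 2.15% of genes at least 1.5-fold higher, against the 5.52% lower given above. A UMI was present in 18.5% of RHS and 29.5% of control keratinocytes, and after thinning in 8.90% of RHS and 18.0% of control cells. The class split in 2 at finer clustering, and both clusters were lower in RHS cells. The cluster that took the basal and follicular name there held other cells than the class of that name above. It had 120 CPM in RHS and 376 CPM in control cells, and the differentiated cluster 324 CPM in RHS and 444 CPM in control cells. Slpi was at 161 and 41.5 CPM in RHS cells of these clusters, against 361 and 222 CPM in control cells. The basal and follicular keratinocyte class itself had 16.3 CPM (6.53 to 33.5) of Serpinb2 in RHS and 12.6 CPM (9.59 to 16.3) in control cells. In macrophages Serpinb2 was at 50.9 CPM in RHS and 67.4 CPM in control cells, a ratio of 0.755 (0.660 to 0.863) that became 1.10 when each library was clustered on its own. The share of macrophage genes at least 1.5-fold higher was 3.88%.

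**Figure D2:**
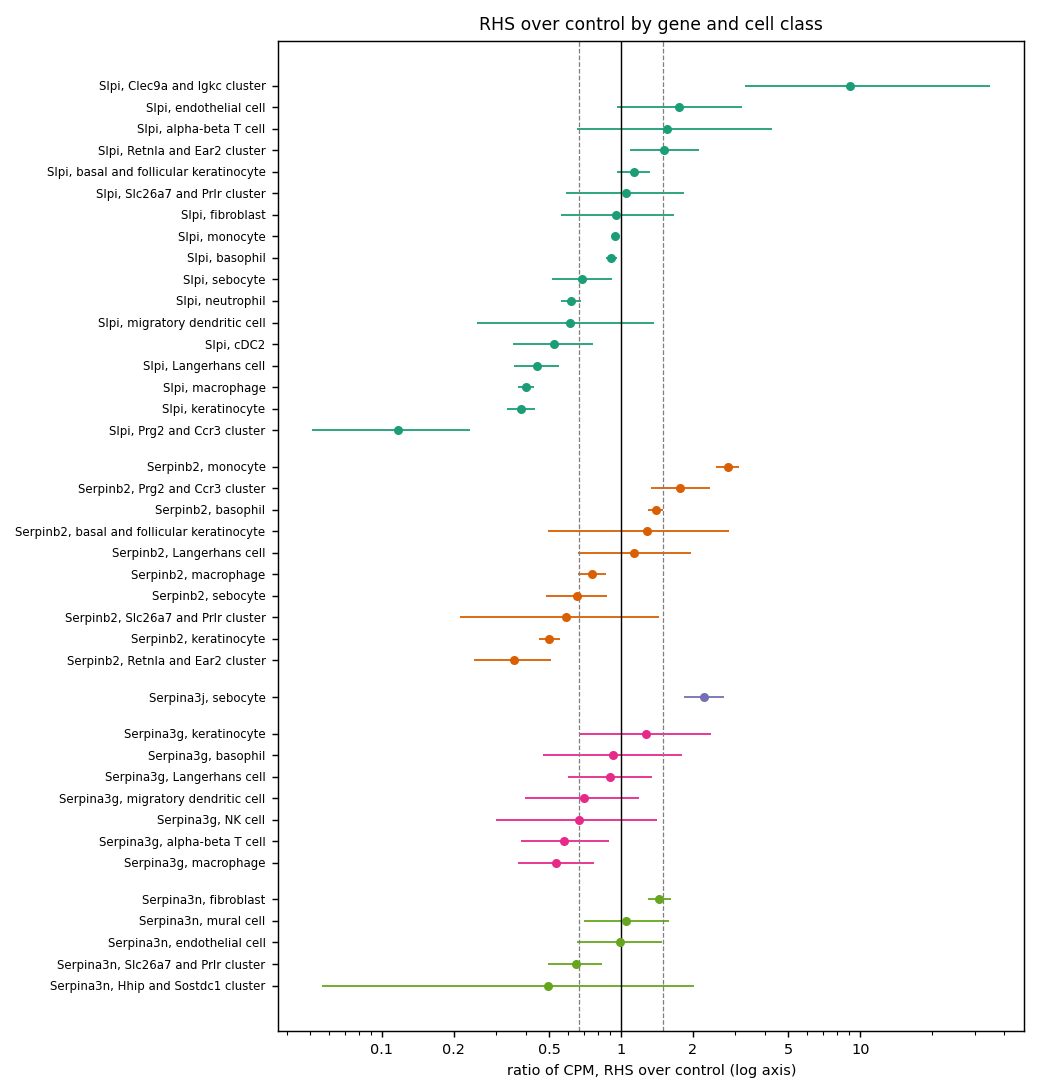
Ratio of CPM, RHS over control, on a log axis with exact 95% intervals, for each gene and class with at least 20 counts in the higher library. The dashed lines mark 1.5-fold either way, and 7 of the 40 ratios lay above and 15 below, with Serpinb2 in monocytes at 2.79 and Slpi in the Prg2 and Ccr3 cluster at 0.117.

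Some monocytes and basophils held UMIs of both Slpi and Serpinb2. Both were present in 10.9% of RHS and 6.87% of control monocytes, where the product of the separate shares was 6.34% in RHS and 4.94% in control cells. Among RHS monocytes 23.6% of those with Slpi had Serpinb2, against 5.40% of those without. Among control monocytes the shares were 13.8% and 6.07%. Monocytes with Slpi had a median of 5063 UMIs against 5322 for the others in RHS and 5216 against 5831 in control cells. The part of depth, and of the finer monocyte cluster rich in both genes, was not tested. In basophils 38.2% of RHS and 37.4% of control cells had both, beside products of 35.4% and 32.7%. Basophils with Slpi were deeper than those without, with a median of 1827 UMIs in both libraries against 1324 in RHS and 1312 in control cells. Over the 50 points given by 25 classes in 2 libraries, which share libraries and free RNA, the log2 levels of the pair correlated with r = 0.69.

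**Figure D3:**
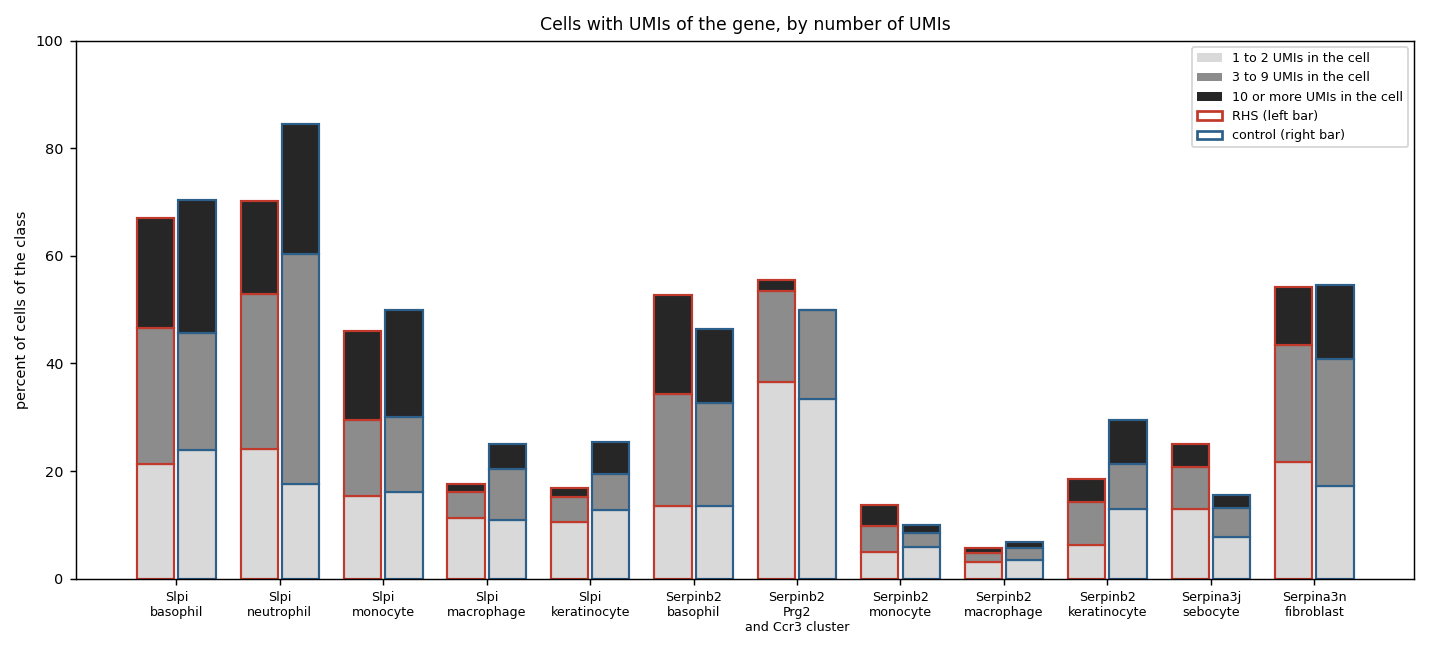
Percent of cells of a class with 1 to 2, 3 to 9 and 10 or more UMIs of the gene, RHS left and control right. Strongly positive monocytes made up 4.06% of RHS and 1.46% of control cells for Serpinb2, while strongly positive keratinocytes made up 4.22% of RHS and 8.22% of control cells.

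Serpina3j was a sebocyte gene in these libraries. Sebocytes, the lipid-filled cells of the sebaceous gland, held 330 of 338 RHS counts and 154 of 157 control counts. Their level was 160 CPM (143 to 178) in RHS and 72.2 CPM (61.2 to 84.5) in control cells, a ratio of 2.22 (1.83 to 2.70). In sebocytes 3.1% of genes were at least 1.5-fold higher and 4.98% at least 1.5-fold lower. Of 208 RHS sebocytes 25.0% had a UMI, and of 207 control sebocytes 15.5%. The richest RHS cell had 64 UMIs and the richest control cell 30, and the richest 1% of sebocytes held 36.7% of RHS and 39.0% of control counts. With cells of at most 10% mitochondrial UMIs the ratio was 1.54. The class was clear, with Scd1 at 16112 CPM in RHS and 18351 CPM in control cells. Monocyte markers summed to 125 CPM in RHS and 33.3 CPM in control sebocytes, and their part in the result was not tested. Serpina3b, a paralogue with 96.8% of its counts in the same cells, was at 225 CPM in RHS and 264 CPM in control sebocytes, a ratio of 0.852 (0.751 to 0.965). No count of Serpina3j was found in 17 of 25 RHS classes and 21 of 25 control classes.

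Serpina3n was highest in fibroblasts among the 25 classes with at least 50 cells in each library. Fibroblasts had 1132 CPM (1062 to 1205) in RHS and 783 CPM (712 to 859) in control cells, and next among these classes came mural cells, the pericytes and smooth muscle of vessels, with 111 CPM in RHS and 106 CPM in control cells. The fibroblast ratio was 1.45 (1.29 to 1.62), short of 1.5-fold, in a class where 9.26% of genes were at least 1.5-fold higher and 5.3% at least 1.5-fold lower. The 6 fibroblast markers had a summed ratio of 0.724 (0.716 to 0.733). Macrophage markers summed to 284 CPM in RHS and 45.4 CPM in control fibroblasts, with Adgre1, C1qa and Cd163 at 0 in control cells, and alpha-beta T cell markers to 131 CPM in RHS and 21.0 CPM in control fibroblasts. Their part in the Serpina3n result was not tested. The share of fibroblasts with a UMI was 54.2% of 212 RHS and 54.5% of 110 control cells. The highest single RHS fibroblast had 139 UMIs and the highest control fibroblast 60. In the Slc26a7 and Prlr cluster Serpina3n was at 56.6 CPM in RHS and 87.7 CPM in control cells, a ratio of 0.646 (0.495 to 0.836). Endothelial cells had 30.1 CPM in RHS and 30.5 CPM in control cells, a ratio of 0.987 that became 2.57 without the 3 cells with the most Serpina3n in each library. Over all kept cells the level was 25.2 CPM in RHS and 20.3 CPM in control cells, a ratio of 1.24 (1.14 to 1.35). Fibroblasts made up 1.63% of RHS and 0.872% of control cells, and with the control library's class shares applied to both the ratio was 1.06. In classes with too few cells for a ratio, levels above those of mural cells were also found. The level of control Schwann cells was above that of control fibroblasts as well. The Adipoq and Cfd cluster, with 16 RHS and 51 control cells, reached 667 CPM in RHS and 627 CPM in control cells. Schwann cells, with 44 RHS and 38 control cells, had 292 CPM in RHS and 951 CPM in control cells, from 19 and 58 counts.

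Serpina3g was low and spread over leukocytes and other cells. It summed to 326 counts or 6.30 CPM (5.63 to 7.02) in RHS and 399 counts or 7.42 CPM (6.71 to 8.18) in control cells, a ratio of 0.850 (0.732 to 0.986). The highest levels in the RHS library were 29.6 CPM (17.5 to 46.8) in basophils and 22.9 CPM (11.8 to 40.0) in NK cells. In the control library they were 34.3 CPM (21.5 to 52.0) in NK cells and 31.9 CPM (20.2 to 47.9) in basophils. These neighbours did not differ beyond their intervals in either library. Fibroblasts had 4.64 CPM (1.26 to 11.9) in RHS and 31.4 CPM (18.6 to 49.7) in control cells, and 11 of the 18 control counts were in 1 cell. Mural cells had 13.3 CPM in RHS and 2.59 CPM in control cells, keratinocytes 8.02 CPM in RHS and 6.31 CPM in control cells, and neutrophils no count in either library. Migratory dendritic cells, which carry antigen to lymph nodes, had 14.9 CPM in RHS and 21.4 CPM in control cells, and alpha-beta T cells 14.3 CPM in RHS and 24.6 CPM in control cells. The T cell ratio was 0.580 (0.382 to 0.887). Macrophages had 6.05 CPM in RHS and 11.3 CPM in control cells, a ratio of 0.535 (0.372 to 0.770) that became 0.982 when each library was clustered on its own. Over 31-base words, 28.8% of the Serpina3g transcript sequence also occurred in other genes, led by Serpina3f, and 38.8% of the last 500 bases did. The sources used here do not say how such reads were counted, so both genes' counts are uncertain. Serpina3f showed 5.02 CPM in RHS and 9.11 CPM in control macrophages. Over the whole transcript the shared part was 11.5% for Serpina3j and 21.6% for Serpina3n, and over the last 500 bases 2.34% for Serpina3j and 1.70% for Serpina3n, and 0 of the words of Slpi and Serpinb2 occurred in another gene.

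**Figure D4:**
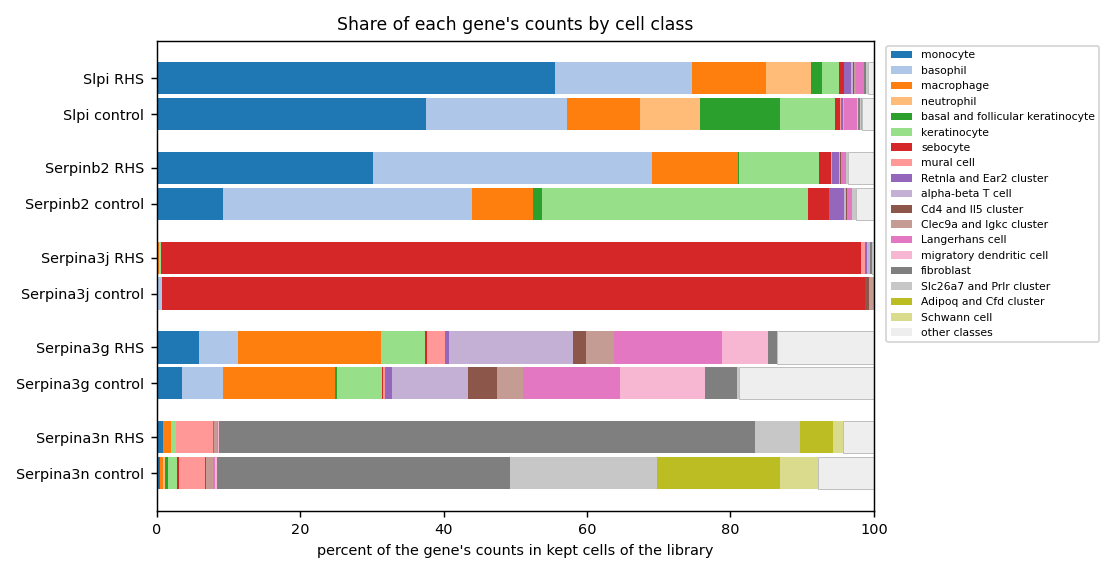
Share of each gene's counts by cell class in percent, RHS bar above control bar. Monocytes held 55.5% of RHS and 37.6% of control Slpi counts, keratinocytes 11.1% of RHS and 37.0% of control Serpinb2 counts, and fibroblasts 74.8% of RHS and 41.0% of control Serpina3n counts.

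Of the 40 ratios of a gene in a class, 7 were at least 1.5-fold higher and 15 at least 1.5-fold lower in RHS cells, and the interval excluded 1 in 5 and 12 of them. Among all 111403 ratios of a gene in 1 of the 25 classes, with at least 50 counts in the higher library, 3.77% were at least 1.5-fold higher and 7.38% at least 1.5-fold lower. The 5 genes had been chosen on these differences, so nothing is read from the comparison of the shares. Slpi had 17 ratios, with 4 higher and 7 lower. Serpinb2 had 10, with 2 higher and 4 lower. The genes whose level followed each of them best over the 50 class and library points were searched among 11954 genes, as a description. For Slpi they were Acod1, which makes itaconate (r = 0.83), Hcar2, a niacin receptor, and Sgms2, a sphingomyelin synthase. For Serpinb2 they were Aqp9, an aquaglyceroporin (r = 0.83), Cyp4f18 and Mboat1. For Serpina3j they were Gm9944, Awat1 and Pnpla5, each at r = 0.99, and Awat1 is a wax synthase of sebocytes. For Serpina3n they were Cygb, Nnmt and Serping1, the gene of C1 inhibitor (r = 0.97, 0.95 and 0.94). For Serpina3g the closest, B4galnt1, reached r = 0.64. Among the 25 classes Serpina3j was at most 3.33 CPM outside sebocytes, so its r rested mainly on the sebocyte points.

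Other inhibitors of the same families were counted over all kept cells, where 2.52% of all genes were at least 1.5-fold higher and 14.3% at least 1.5-fold lower. Of 8 measured clade B serpins of 17 listed, 0 were higher and 2 lower, and of 8 measured serpins of other clades of 15 listed, 0 were higher and 3 lower. Of 3 measured Serpina3 paralogues, 0 passed 1.5-fold in either direction, and of 3 measured WAP domain genes 0 were higher and 1 lower. Serpinb9, an inhibitor of granzyme B, was at 1916 CPM in RHS and 2684 CPM in control migratory dendritic cells, a ratio of 0.714 (0.682 to 0.747). Serpinb1a, an inhibitor of neutrophil proteases, was at 6457 CPM in RHS and 6189 CPM in control mast cells. In monocytes 0 of 5 measured clade B genes were at least 1.5-fold higher and 1 lower, beside 2.67% and 4.39% of all genes, and the median log2 ratio was -0.11 beside 0.03 for all genes of the class. Of the WAP domain genes Wfdc17 was at 501 CPM in RHS and 500 CPM in control macrophages, while Slpi was lower there. Wfdc21 was at 774 CPM in RHS and 671 CPM in control neutrophils, and at 16.4 CPM in RHS and 7.63 CPM in control monocytes.

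The class shares differed between libraries, as given above, and their part in the following counts over all kept cells was not tested. Over all genes 2.52% were at least 1.5-fold higher and 14.3% at least 1.5-fold lower. Of 6 measured granulocyte and mast cell proteases 0 were at least 1.5-fold higher and 4 lower, of 9 kallikrein and epidermal protease genes 0 and 7, and of 6 genes of plasminogen activation 0 and 2. Of 6 granzymes 2 were higher and 1 lower, and of 9 lysosomal cathepsins 4 were higher and 1 lower. Within the class that holds most counts of each gene, the ratios below lay within 1.5-fold. The mast cell chymase Mcpt4 was at 35371 CPM in RHS and 34114 CPM in control mast cells. Gzmb, the gene of granzyme B, was at 1385 CPM in RHS and 1169 CPM in control alpha-beta T cells, and Gzmc at 3472 CPM in RHS and 4401 CPM in control NK cells. Alpha-beta T cells held 34.1% of Gzmb counts, and granzymes in other classes went both ways. In macrophages 2 of 2 measured granzymes were at least 1.5-fold higher, beside 3.88% of all genes, and in monocytes 1 of 1, beside 2.67%. In gamma-delta T cells 1 of 1 was at least 1.5-fold lower, beside 8.36%, and in mast cells 1 of 1, beside 7.01%. Among genes of plasminogen activation, Plaur, the urokinase receptor, was at 959 CPM in RHS and 1126 CPM in control macrophages. In monocytes 0 of 5 measured genes of that list were at least 1.5-fold higher or lower, beside 2.67% higher and 4.39% lower of all genes, with a median log2 ratio of -0.12. Of 7 measured kallikrein and epidermal protease genes in keratinocytes, 1 was at least 1.5-fold higher and 2 lower, beside 2.15% and 5.52% of all genes, with a median log2 ratio of -0.36 beside 0.01 for all genes. Klk7, a kallikrein that sheds the cornified layer, was at 447 CPM in RHS and 572 CPM in control keratinocytes, a ratio of 0.780 (0.726 to 0.839). The lysosomal cathepsins Ctsb, at 8301 CPM in RHS and 7675 CPM in control macrophages, and Ctss, at 6426 CPM in RHS and 6655 CPM in control macrophages, were likewise close. Of 13 measured inflammation-induced genes in monocytes, 1 was at least 1.5-fold higher and 1 lower, beside the same 2.67% and 4.39%. Il1b was at 4230 CPM in RHS and 3422 CPM in control monocytes, a ratio of 1.24 (1.21 to 1.26).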

How the data were processed

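The authors deposited whole-number UMI counts for each gene in each barcode, without scaling, per the file headers and the values. GRCm39 is the build named in the submitters' processing notes. These notes also list Cell Ranger, Seurat 5.1.0 and R 3.6.0 without saying what each did, and the ganglia file's header names Cell Ranger 7.1.0. The sources used here do not say how skin barcodes were called. The 5 genes, the gene lists and the comparisons were chosen with earlier results of these data known.

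A kept cell had 200 genes or more and no more than 20% of its UMIs from mitochondrial genes. That removed 92 RHS and 54 control barcodes for few genes and 237 RHS and 246 control barcodes for mitochondrial UMIs. Scrublet, run per library at an expected 6%, removed 87 RHS (0.652%) and 111 control (0.855%) doublets, so undetected doublets remain. Counts were scaled to 10000 per cell, log-transformed and clustered for both libraries together on 2000 variable genes, 30 principal components and 15 neighbours with Leiden resolution 1.0, in scanpy 1.11.5 with igraph 0.11.9 and Python 3.11.15. The 5 genes and all list genes were left out of the variable genes. Clusters were named from 27 marker classes, with at least 3 markers each found in 5% of cells and 2-fold over other clusters. After the clusters were seen, an eosinophil name was made to need Epx or Siglecf, an Adipoq-led cluster was not called sebocytes, and keratinocytes were joined. Named genes were the 5 members in every class, the 3 genes most like each by Pearson r of log2(CPM + 10) among genes with at least 200 counts, and the 3 most abundant genes of each of 10 lists in the class holding most of their counts. Any other gene was named after its values were seen. The class of a member was that with most of its counts. CPM, Poisson, Clopper-Pearson and ratio intervals came from scipy 1.17.1, and the ratio function was tested on simulated data. A library without counts of a gene was set at a floor of 3 counts, which makes its ratio a bound. Promoters came from the RefSeq table, were found for all 5 genes and aligned with Biopython. Words of 31 bases came from GENCODE transcripts. No protein sequences were compared. PCR copies are collapsed by UMIs, and intervals cover counting error only.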

Additional observations from a re-analysis of the deposited data

Results flagged for a closer look

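Slpi and Serpinb2 each gave ratios in single classes that stood apart from the same gene's ratios in others. With 1 library per group the difference between classes was not tested. Slpi in the Clec9a and Igkc cluster was at 27.2 CPM (40 counts) in RHS and 2.99 CPM (4 counts) in control cells, a ratio of 9.09 (3.28 to 35.0), and 24 of the RHS counts came from 1 cell. Slpi in the Prg2 and Ccr3 cluster had the opposite direction with a ratio of 0.117. Serpinb2 in monocytes had a ratio of 2.79, and in the Retnla and Ear2 cluster, a myeloid cluster without a class name, a ratio of 0.355 (0.244 to 0.512) from 46 RHS and 92 control counts.

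The nuclei of sympathetic ganglia from mice given RHS and MC903, which entered no comparison, held counts of 4 of the genes. Slpi was at 33.1 CPM in 4.36% of 4706 nuclei, Serpinb2 at 3.6 CPM, Serpina3g at 1.80 CPM and Serpina3n at 44.0 CPM in 8.35% of nuclei. No count of Serpina3j was found, which allows up to 0.270 CPM. There was no control ganglia library, and the chemistry differs from that of the skin.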

How the results depend on the processing

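Of 393 ratios recomputed under an alternative, 27 lay on the other side of 1 from the value as reported. In 4 of these the ratio as reported was past 1.5-fold. These 4 were Slpi in the Retnla and Ear2 cluster (0.686 at resolution 2.0), Slpi in cDC2 (1.41 with at least 500 genes per cell and 1.32 at resolution 0.5) and Serpinb2 in the Slc26a7 and Prlr cluster (1.05 with at least 500 genes per cell). The other 23 had started within 1.5-fold of 1, among them Slpi in basal and follicular keratinocytes (0.943, 0.599, 0.428 and 0.232 under 4 alternatives, against 1.13 as reported) and Serpinb2 in macrophages (1.10 against 0.755). Relative to the median of all genes, the ratio over all kept cells was 0.875 for Slpi and 1.17 for Serpinb2. In monocytes Slpi had a ratio of 0.865 with doublets kept, 0.895 with at least 500 genes, 0.844 with at most 10% mitochondrial UMIs, 0.808 at resolution 0.5 and 0.605 with separate clustering. With at most 10% mitochondrial UMIs, Serpinb2 over all cells was at 1.16, and Serpina3j at 1.44 over all cells and 1.54 in sebocytes. Serpina3g in macrophages was at 0.982 with separate clustering. Serpina3n over all cells was at 1.12 without the 3 cells with most UMIs and 1.06 with the control library's class shares. The count of ratios at least 1.5-fold higher was 4 instead of 7 at resolution 2.0, with free RNA subtracted and with at least 100 counts. The count at least 1.5-fold lower was 8 instead of 15 with at least 500 genes and 7 with at least 100 counts, where fewer ratios could be given. The cause of the other shifts was not tested. Ratios from few cells depend on single cells, as for Slpi in sebocytes (0.362 without 3 cells, 5.36 with at most 10% mitochondrial UMIs) and Serpina3n in endothelial cells (2.57 without 3 cells).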
